A study of Mus musculus with 8 samples.

Results

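Zfhx2, Zfhx3 and Zfhx4 encode the 3 mouse members of the zinc finger homeobox family. They were followed in ribosome-bound RNA of the hippocampus, with and without Ctcf in Camk2a-Cre-expressing neurons. All non-control array probes that carry 1 of these gene names were taken, which gave 3 of 35739 names and 5 of 55663 probes: 1 for Zfhx3, 2 for Zfhx2 and 2 for Zfhx4. Zfhx3 was chosen by its measured difference between genotypes, a low signal in the knockouts, so that difference is given as a description without a test. Zfhx2 and Zfhx4 joined as its relatives. All 5 probes passed the filter on dim signal, which asked for signal well above background on at least 4 of 8 arrays, and for Zfhx3 the 4 WT arrays alone would have met it.

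The conditional knockout (CKO) mice were labelled Ctcf loxP/loxP, Camk2a-Cre positive and Ribotag positive. The WT mice were labelled Ctcf wild type and carried the same Camk2a-Cre and Ribotag alleles. There were 4 mice of each genotype, 3 males and 1 female, all C57BL/6, untreated, naive and at least 3 months old. The series' design text describes the controls differently, as loxP/loxP mice, and the sample labels were followed here. In RiboTag mice Cre switches on a haemagglutinin-tagged form of the ribosomal protein Rpl22, and an antibody against the tag pulls down ribosomes with their bound transcripts. Camk2a-Cre acts mainly in forebrain excitatory neurons, so Ctcf is deleted, and the tag made, only in cells that the Cre reaches. In such bulk samples fewer cells of a type and less RNA per cell cannot be told apart.

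Zfhx proteins are very large transcription factors with many zinc fingers and several homeodomains, and they bind A/T-rich DNA. ZFHX3, also called ATBF1, restrains proliferation as a tumour suppressor in human epithelial cells. In mice it is needed for neuropeptide expression and daily rhythms in the suprachiasmatic nucleus. ZFHX2 is known from sensory neurons, where a human missense change goes with insensitivity to pain, and ZFHX4 works with the chromatin remodeller CHD4 in human glioblastoma cells. CTCF, the protein removed in the CKO neurons, binds DNA through its own zinc fingers and sets the borders of chromatin loops.

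The probe sequences are shown because each gene is read here through 1 or 2 short windows of a very long transcript. Each probe is 60 bases long, and the files give the position of its first base in the transcript and its genome position in mm9. The Zfhx3 probe, A_55_P2106459, lies at chr8:111485354-111485413 on the plus strand, from transcript base 16256. The Zfhx2 probes lie on the minus strand of chromosome 14, A_52_P382048 at chr14:55682017-55682076 from base 7143 and A_55_P2123854 at chr14:55680514-55680573 from base 8646. The Zfhx4 probes lie on the plus strand of chromosome 3, A_55_P2061686 at chr3:5413028-5413087 from base 11046 and A_55_P2123841 at chr3:5415683-5415742 from base 13701. The first line for Zfhx2 and for Zfhx4 is a whole probe, and the other 3 lines are the last 30 bases of a probe. Capitals mark a closing run of 5 or more A.
Zfhx3 A_55_P2106459: tcaaactgaaaaagaaatttgtcacAAAAA
Zfhx2 A_52_P382048: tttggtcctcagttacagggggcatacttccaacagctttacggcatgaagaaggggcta
Zfhx2 A_55_P2123854: ctttgaatatacatagagagagagAAAAAA
Zfhx4 A_55_P2061686: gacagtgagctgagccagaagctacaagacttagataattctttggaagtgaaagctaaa
Zfhx4 A_55_P2123841: actttctgtttttattttgtcacagagctg

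The Zfhx3 probe closes with 5 A and the dimmer Zfhx2 probe, A_55_P2123854, with 6 A. Their A content over all 60 bases was 46.7% and 56.7%, against 25.0%, 38.3% and 25.0% for the Zfhx2 probe A_52_P382048 and the Zfhx4 probes A_55_P2061686 and A_55_P2123841. The files do not say whether a probe lies in coding sequence or in a UTR. With 1 Zfhx3 probe, which starts at base 16256, a lower level of the whole transcript and a change in how its far end is used cannot be told apart.

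Array quality sets the limits of what follows. Between 72.2% (CKO 3) and 79.2% (CKO 4) of probes were well above background on the CKO arrays, and between 77.9% (WT 4) and 81.5% (WT 1) on the WT arrays. The arrays sat on 3 slides, slide 2 with CKO 1, CKO 2, WT 2 and WT 3, slide 3 with CKO 3, CKO 4 and WT 4, and slide 1 with WT 1 alone. CKO 3 stood farthest from the others on the first principal component, which held 52.9% of the variance. Levels are log2 signal minus each array's 75th percentile, so a level of 0 is that percentile. The lowest signal called well above background was -5.77 to -5.17 on this scale. Across 44314 probes, limma with Benjamini-Hochberg adjustment called 0 between genotypes (0%), while 2362 (5.33%) had an unadjusted p under 0.05, 940 higher and 1422 lower in CKO. The median difference over these probes was -0.096, and it was 0.048 when arrays were scaled to their medians instead. Other scalings turned this balance: median scaling gave 1158 higher and 921 lower, quantile normalization 1093 and 796, and the authors' deposited values 1478 and 510.

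The deleted gene was low in the knockouts. Ctcf had levels of -2.56, -2.42, -1.97 and -2.02 in CKO 1 to 4, against -1.11, -1.75, -1.48 and -1.15 in WT 1 to 4. The groups did not overlap, and the CKO mean of -2.24 ± 0.30 was 54.8% of the WT mean of -1.37 ± 0.30 on the linear scale (SD, n = 4 each; exact permutation p = 0.0286 over 70 splits, two-sided, the smallest these can give; limma adjusted p = 0.738). Whether the Ctcf probe lies in the deleted part of the gene is not given in the sources used here.

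**Figure D1:**
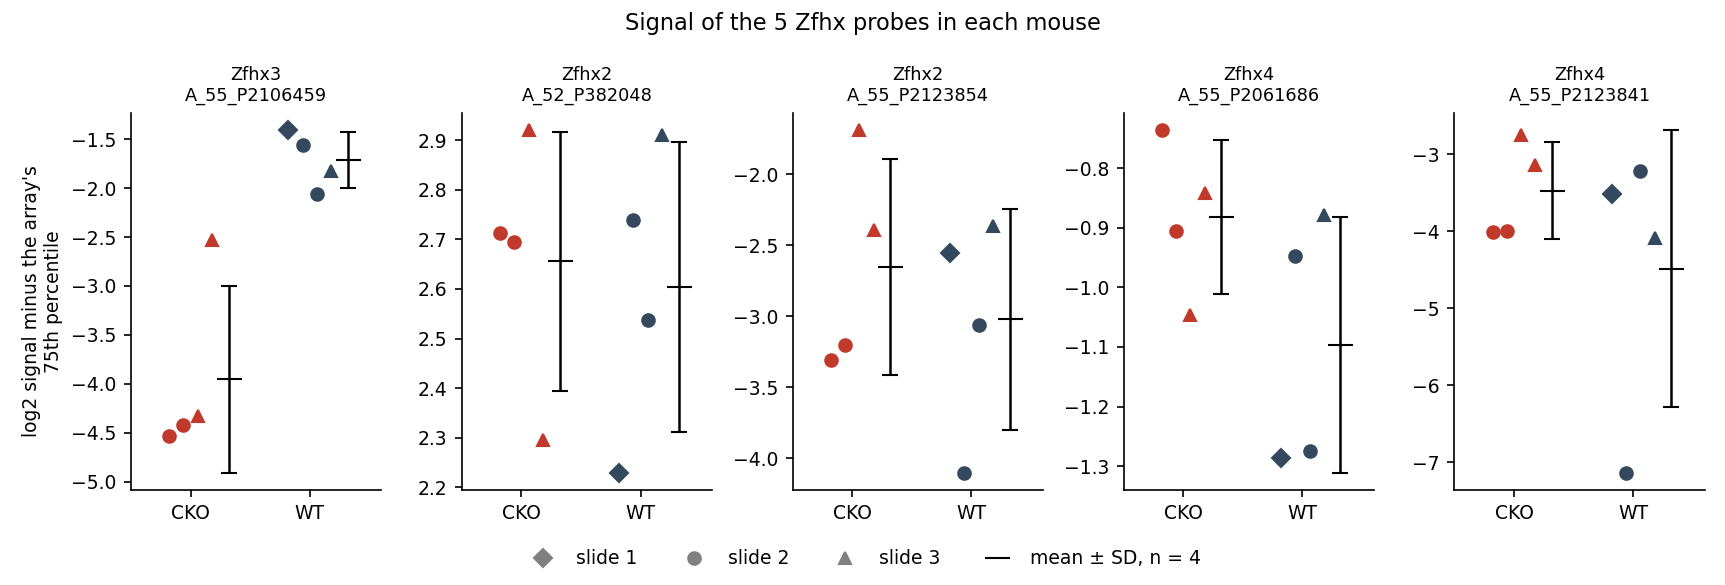
Level of the 5 Zfhx probes (log2 signal minus the array's 75th percentile, vertical axes that differ between panels), with 1 point per mouse, CKO left of WT, symbols for the slide, and the group mean with its SD beside the points (n = 4). The Zfhx3 points of the genotypes do not overlap and CKO 4 stands above the other 3 knockouts, while the points of all 4 Zfhx2 and Zfhx4 probes overlap.

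Zfhx3 was the member with the large difference. Its level was -4.54 in CKO 1, -4.42 in CKO 2, -4.33 in CKO 3 and -2.53 in CKO 4, against -1.41, -1.55, -2.06 and -1.82 in WT 1 to 4. Every CKO mouse lay below every WT mouse. The first 3 knockouts lay within 0.207 of each other, and the fourth lay 1.80 above the highest of them and 0.465 below the lowest WT mouse. On the linear scale the Zfhx3 probe had 4.31%, 4.67%, 4.97% and 17.4% of the 75th percentile in CKO 1 to 4, against 37.7%, 34.1%, 24.0% and 28.3% in WT 1 to 4. The group means were -3.95 ± 0.96 in CKO and -1.71 ± 0.29 in WT (SD, n = 4 each), a difference of -2.24 with a standard error of 0.43, or 21.1% of the WT level. The CKO spread was more than 3 times the WT spread. The probe was well above background on all 8 arrays, so the CKO levels are measured values and not bounds.

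Of the 5 Zfhx probes 1 had groups that did not overlap, the Zfhx3 probe, with CKO lower. Of all 44314 probes 1.57% had CKO wholly below WT and 3.28% had groups apart in either direction. Because this same contrast chose Zfhx3, nothing is read from that count. The values that surround the Zfhx3 choice are that 11 of the 44314 probes had a difference at or below -2.24, and that the other member differences ran from 0.052 to 1.01.

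The size of the Zfhx3 difference depended on CKO 4 and on the background correction, and its sign did not. Without CKO 4 the difference was -2.72. On slide 2, which held CKO 1, CKO 2, WT 2 and WT 3, it was -2.67. On slide 3, which held CKO 3, CKO 4 and WT 4, it was -1.61. The slides differed in this through CKO 4. The other slide 3 knockout, CKO 3 at -4.33, lay close to the slide 2 knockouts at -4.54 and -4.42. WT 4 lay between the WT mice on slide 2, 0.014 below their mean. Background correction with an offset of 50 followed by quantile normalization gave -1.10. This setting starts from the spot and background intensities in place of the processed signal, and what made the difference smaller was not tested. Over the 17 alternative settings that did not leave out single arrays the difference lay between -2.67 and -1.10, and it was negative in all 17.

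**Figure D2:**
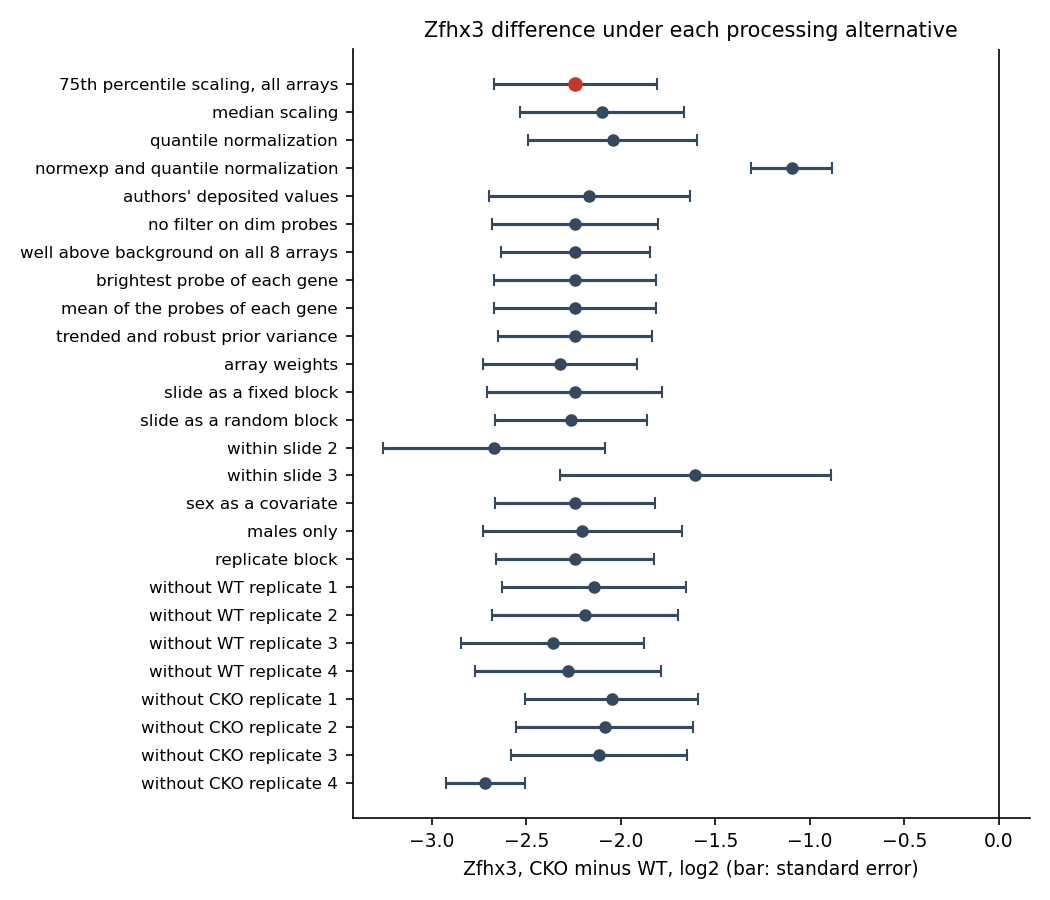
Difference of Zfhx3 between CKO and WT mice (log2, horizontal axis) under each processing alternative and with each array left out, each setting on its own line, with bars for the standard error. All points lie below 0, from -2.72 without CKO 4 to -1.10 with offset background correction and quantile normalization.

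Zfhx2 was read by a bright and a dim probe, and neither differed between genotypes beyond the spread of mice. The bright probe, A_52_P382048, had levels of 2.71, 2.69, 2.92 and 2.30 in CKO 1 to 4, against 2.23, 2.74, 2.54 and 2.91 in WT 1 to 4. The CKO and WT ranges lay almost wholly on top of each other, and the lowest value of all was WT 1. The difference was 0.052 (95% interval -0.42 to 0.52, limma adjusted p = 0.927), so a larger gain than 0.52 lies outside the interval. Its sign turned under several settings, down to -0.30 within slide 3.

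The dim Zfhx2 probe, A_55_P2123854, had levels of -3.31, -3.21, -1.69 and -2.40 in CKO 1 to 4, against -2.56, -4.10, -3.06 and -2.36 in WT 1 to 4. The highest value belonged to CKO 3 and the lowest to WT 2, and the rest were mixed. The difference was 0.37 with a wide 95% interval of -0.69 to 1.43 (limma adjusted p = 0.784). A doubling of the signal of this probe lies within that interval.

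Zfhx4 was likewise read by 2 probes. The brighter probe, A_55_P2061686, had levels of -0.74, -0.91, -1.05 and -0.84 in CKO 1 to 4, against -1.29, -0.95, -1.27 and -0.88 in WT 1 to 4. This was the least variable probe of the family, with an SD of 0.13 in CKO and 0.21 in WT. The ranges overlapped, and the difference of 0.22 (95% interval -0.16 to 0.59, limma adjusted p = 0.738) did not pass.

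The dimmer Zfhx4 probe, A_55_P2123841, had levels of -4.01, -4.00, -2.75 and -3.14 in CKO 1 to 4, against -3.51, -7.13, -3.22 and -4.09 in WT 1 to 4. It was well above background in all 4 CKO mice and in 3 WT mice, and the value of WT 2 was not. The difference of 1.01 (95% interval -0.79 to 2.81, limma adjusted p = 0.738) rested on that one array, since it was 0.13 without WT 2. The dim Zfhx2 probe was higher on slide 3 than on slide 2, by 1.22 in CKO mice and by 1.22 in WT mice, where slide 3 holds only WT 4. The dim Zfhx4 probe was 1.06 higher on slide 3 in CKO mice, while WT 4 on slide 3, at -4.09, lay below WT 3 on slide 2, at -3.22.

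Taking the Zfhx2 and Zfhx4 probes together, none of the 4 passed a threshold of 0.05 in the limma fit, in which 0% of all probes passed, and none had groups that did not overlap, against 3.28% of all probes. The limma adjusted p of these 4 probes ran from 0.363 to 1.00 over all settings. The difference between Zfhx3 and its relatives was not tested, since Zfhx3 was chosen for its own difference.

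**Figure D3:**
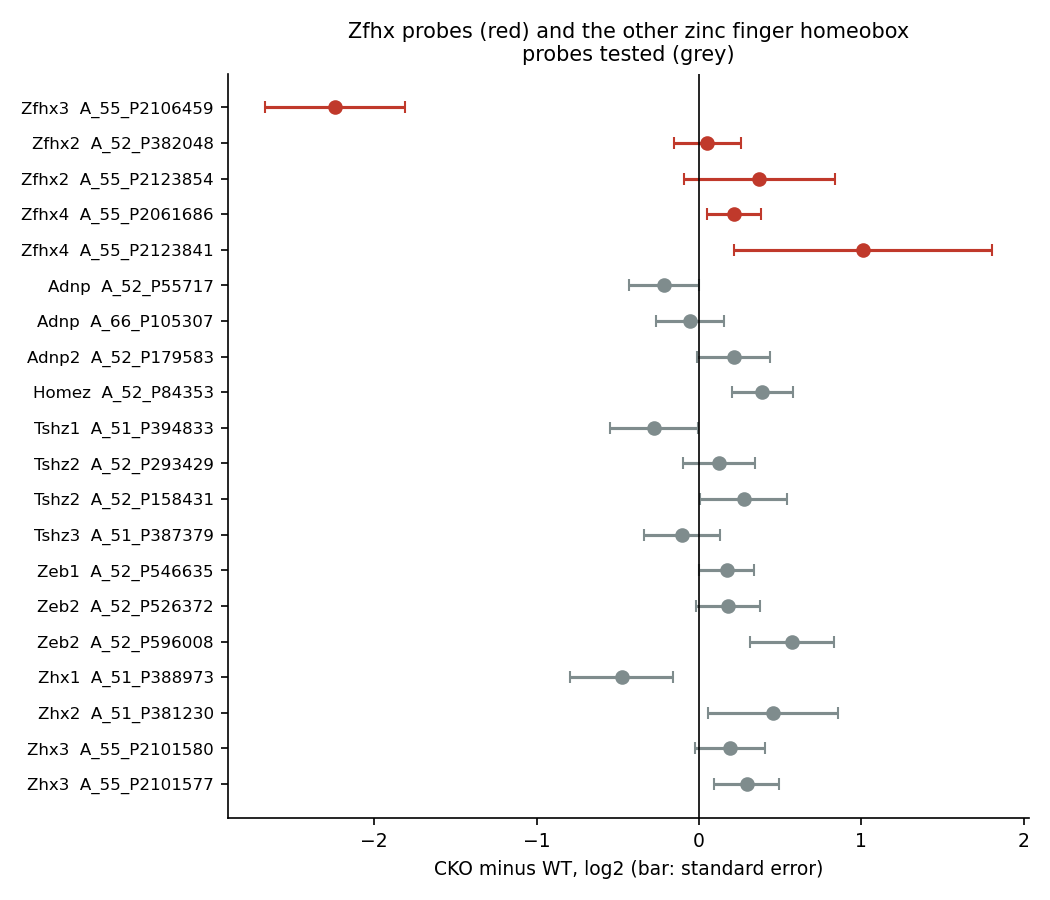
Difference between CKO and WT mice (log2, horizontal axis, points with standard errors) for the 5 Zfhx probes in red and for the 15 tested probes of the other zinc finger class homeobox genes in grey. Zfhx3 lies at -2.24, and the others lie between -0.48 (Zhx1) and 1.01 (the dim Zfhx4 probe).

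The other zinc finger class homeobox genes gave a wider view of the family. All 11 on the list were tested through their brightest probe, and 4 were lower and 7 higher in CKO, with 0 past the limma adjusted threshold and a median difference of 0.17. Over the brightest probe of all 29528 genes 0% passed that threshold and the median was -0.078. With arrays scaled to their medians 2 of the 11 were lower and 9 higher, and the list's median lay between 0.039 and 0.32 over the 17 settings. By these probes Zeb2, a transcription factor of cortical and glial development, had the highest difference at 0.57, and Zhx1, a zinc finger and homeobox repressor, the lowest at -0.48. The dimmer Zeb2 probe, A_52_P526372, had 0.18. Between the brightest probes of Zeb2 and Zhx1 lay Zhx2 at 0.46, Homez at 0.39, Adnp2 at 0.21, Zhx3 at 0.19, Zeb1 at 0.17, Tshz2 at 0.13, Adnp at -0.056, Tshz3 at -0.10 and Tshz1 at -0.28. Adnp encodes a chromatin protein needed in brain development, and the Tshz genes encode teashirt-type factors of tissue patterning.

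Homez was the one gene of this class whose groups did not overlap. Its levels were -1.58, -1.66, -0.95 and -1.36 in CKO 1 to 4, against -1.78, -1.87, -1.73 and -1.73 in WT 1 to 4. The CKO values lay higher and were more spread, with an SD of 0.32 in CKO and 0.065 in WT. Homez had a difference of 0.37 to 0.55 over the other scalings. The limma adjusted p was 0.738, and 1 of 11 genes with groups apart stands beside 3.32% of all brightest probes. Homez lies on the same chromosome as Zfhx2, at a distance of 207.6 kb from its bright probe.

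Genes tied to ZFHX3 in earlier work were read next. Of 16 partners and targets known from other cells, mostly human tumour lines, 13 were tested, and Myb, Afp and Pdgfrb were too dim. There were 8 lower and 5 higher, 0 past the limma adjusted threshold, a median of -0.022 and no gene with groups apart, beside 0% of all genes past that threshold and 3.32% with groups apart. The sign of that median was not fixed, as it ran from -0.085 to 0.12 over the 17 settings. The 3 with the smallest unadjusted p were Trp53, the p53 gene, at 0.25, Runx3, a runt-family factor, at -0.62, and Chd4 at 0.21. Chd4 was on this list although the work named above ties it to ZFHX4, so the counts are not of ZFHX3 partners alone.

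The circadian list held the peptides of the suprachiasmatic nucleus and the core clock genes. Of 21 genes 18 were tested, and Vip, Prok2 and Cry1 were too dim. There were 8 lower and 10 higher, with 0 past the limma adjusted threshold (0% of all genes). Their median was 0.078 (all genes -0.078), and it ran from -0.022 to 0.22 over the settings. Prokr2, the receptor of the peptide prokineticin 2, had levels of -2.68, -4.45, -2.30 and -1.94 in CKO 1 to 4, against -3.19, -4.85, -5.00 and -3.84 in WT 1 to 4. Its difference of 1.38 was the highest of the list, but CKO 2 lay within the WT range (limma adjusted p = 0.738). The peptide genes Cck and Nms had differences of 0.34 and -0.74, and Sst, a peptide of this list that also marks interneurons, had 0.37.

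POU homeobox genes, which share the homeodomain with the Zfhx family but carry no zinc fingers, were tested for 7 members. There were 2 lower and 5 higher, with 0 past the limma adjusted threshold (0% of all genes) and a median of 0.076 (all genes -0.078). Pou3f1 at 0.40, Pou2f2 at 0.28 and Pou3f4 at -0.25 had the smallest unadjusted p.

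The chromosomal setting of Zfhx3 was read from the probe positions. Ctcf and Zfhx3 lie on the same chromosome, with 3.28 Mb between their probes. By the sample labels the CKO mice carry the loxP allele of Ctcf and the WT mice do not, and then DNA linked to that allele and the loss of Ctcf cannot be told apart for genes nearby. If the controls were loxP/loxP, as the design text has it, both genotypes would carry that allele. Between the 2 probes 64 genes or transcribed regions were tested, 30 lower and 34 higher in CKO, with a median of 0.050. They were placed by the mapped position of the probe, whatever gene name the probe carries. Of these 4 had groups that did not overlap (6.2%, against 3.32% of all genes), and none passed the limma adjusted threshold (0% of all genes). Pdf at -1.22 and C630050I24Rik at -0.82 were lower. For C630050I24Rik the difference leaned on CKO 4, at -4.47. CKO 1 to 3, at -2.44 to -2.27, lay just below the lowest WT value of -2.26. Psmb10 at 0.43 and a probe that carries the name Rpl10, at 0.29, were higher. Whether that probe reads a transcript from this place or from an Rpl10 gene elsewhere was not tested.

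Within 1 Mb of the Zfhx3 probe 20 genes or transcribed regions were tested, 8 lower and 12 higher in CKO, with a median difference of 0.058. The nearest on one side, D8Ertd158e, lay 218.7 kb away with a difference of 0.10. The nearest on the other, an unnamed transcribed region, lay 186.7 kb away with a difference of -0.27. The 3 with the smallest p were 4922502B01Rik, ENSMUST00000133353 at -0.32 and that same region. Of the 20 genes or regions 1 (5%, near the 3.32% of all genes) had groups apart, and it was 4922502B01Rik.

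4922502B01Rik had the smallest adjusted p of the genes around Zfhx3. Its probe A_55_P2030612, at chr8:111774833-111774892 on the minus strand and 289.5 kb from the Zfhx3 probe, had levels of 0.38, -0.085, 0.40 and 0.47 in CKO 1 to 4. In WT 1 to 4 it had -1.17, -1.33, -1.31 and -0.89. All CKO mice lay above all WT mice, by a mean of 1.46 (SE 0.19, 275.7% of WT), with a limma adjusted p of 0.161 that misses the threshold. That p ran from 0.0461 to 0.933 over all settings, and only background correction with an offset took it past 0.05. CKO 4, the highest knockout for Zfhx3, was also the highest here, close to CKO 1 and CKO 3. A second probe of the same name, A_55_P2218483, lies on the other strand, 224.1 kb from the Zfhx3 probe. Its difference was -0.86 (SE 0.37, limma adjusted p = 0.738), opposite in sign to the first. This second probe was well above background on 7 of 8 arrays, and its difference was -0.55 without CKO 3 and -0.12 with offset background correction. The mean of both probes gave 0.30.

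Between these sites the array carries probes for transcribed intergenic regions. After Zfhx3, 10 such probes at 186.6 to 284.3 kb were tested, and all 10 had negative differences, from -0.67 to -0.001 with a median of -0.25. None had groups apart, and many of these probes overlap or abut, so they are not separate measurements. The region probes that follow Zfhx2, 18 of them at 2.1 to 8.3 kb, were negative for 17, from -0.53 to 0.13, with a median of -0.18. Of the 18, 1 had groups apart, against 3.28% of all probes, and several of these probes abut too. The median over all probes was itself -0.096, and 58.5% of the brightest probes of all genes had negative differences. With arrays scaled to their medians the median over all probes was 0.048, and signs of the region probes under that scaling are not given here.

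**Figure D4:**
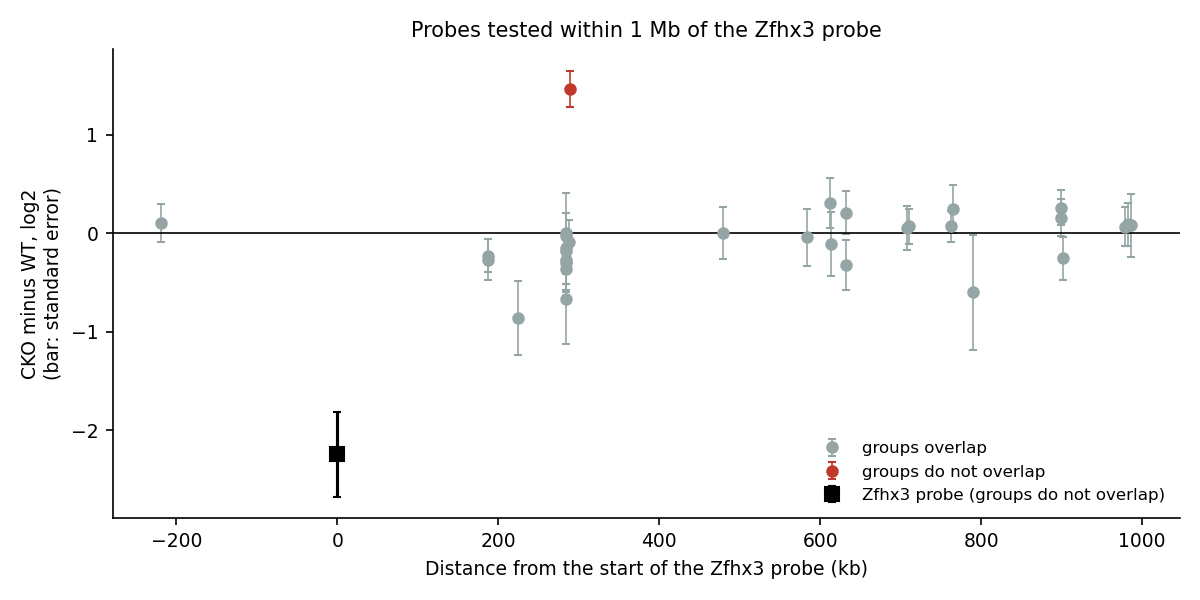
Difference between CKO and WT mice (log2, vertical axis) of the 31 tested probes within 1 Mb of the Zfhx3 probe, by distance from it in kb (horizontal axis), with standard errors; the square is Zfhx3 and red points are probes whose groups do not overlap. Zfhx3 at -2.24 is the lowest point and 4922502B01Rik at 1.46 the highest.

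Zfhx2 lies in a denser stretch, where 94 genes, unnamed probes or transcribed regions were tested within 1 Mb. There were 53 lower and 41 higher, with a median of -0.083, and 10 had groups apart (10.6%, against 3.32% of all genes). Among the 10 were Homez, described above, an intergenic region and a pair of neighbouring probes, Myl6 and the unnamed A_55_P2074776. They are therefore not 10 separate genes. Probes were placed by mapped position, whatever name they carry. Whether the probe named Myl6 reads a transcript from this place was not tested. None of the 94 passed the limma adjusted threshold (0% of all genes). The 3 with the smallest p were Myh7, a myosin heavy chain of heart and slow muscle, at 0.92, Cdh24, a cadherin, at -0.78 (-0.775), and Haus4, a subunit of the spindle complex augmin, at -0.88. Their limma adjusted p ran from 0.708 to 0.738, and all 3 had groups apart.

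Zfhx2os is an antisense gene at the Zfhx2 locus, read by a probe on the plus strand at 12.6 kb from the bright Zfhx2 probe. Its levels were -1.57, -0.94, -1.32 and -0.62 in CKO 1 to 4, against -2.08, -1.34, -2.65 and -2.06 in WT 1 to 4. CKO 1 and WT 2 made the groups overlap, and the difference was 0.92 (SE 0.31, limma adjusted p = 0.738). The labels do not say that the amplification kept strand, so signal from the sense and antisense genes cannot be told apart where they overlap.

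**Figure D5:**
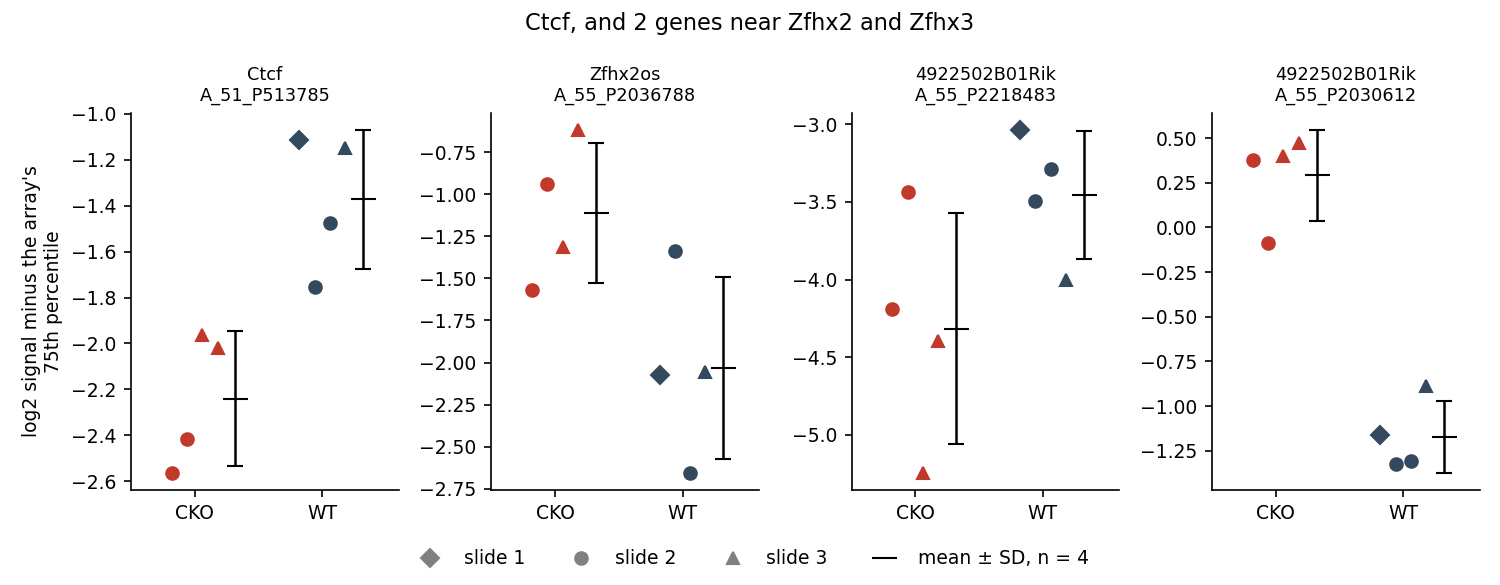
Level of Ctcf, Zfhx2os and the pair of 4922502B01Rik probes (log2 signal minus the array's 75th percentile, vertical axes that differ between panels), with 1 point per mouse, CKO left of WT, symbols for the slide, and the group mean with its SD (n = 4). Ctcf is lower and the 4922502B01Rik probe A_55_P2030612 higher in all CKO mice than in all WT mice, and the groups overlap for Zfhx2os and A_55_P2218483.

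Zfhx4 lies in a gene-poor stretch, where 7 genes or regions were tested within 1 Mb. There were 3 lower and 4 higher, with a median of 0.051 (all genes -0.078) and no groups apart (3.32% of all genes). The nearest were Gm10748 at 197.9 kb with -0.12 and Pex2, which encodes a peroxisome assembly protein, at 147.6 kb with 0.075. The 3 with the smallest p were ENSMUST00000192494 at -0.40, the unnamed probe A_55_P1979003 at 0.15 and an unnamed region at 0.14.

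Markers of cell types were set beside the Zfhx values, since hippocampal tissue and its neighbours differ in which cells use these genes. All 9 excitatory neuron markers were measured on all 8 arrays. Camk2a had levels of 6.26, 6.23, 5.84 and 5.66 in CKO 1 to 4, against 5.83, 6.10, 6.03 and 5.81 in WT 1 to 4, far above the 75th percentile in every mouse. The mean level of these 9 markers was 2.46 to 2.92 in CKO mice and 2.38 to 2.71 in WT mice. Interneuron markers were measured too, 11 of 12 (all but Vip), with mean levels of -0.39 to -0.23 in CKO mice and -0.61 to -0.21 in WT mice.

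Among 10 marker lists the choroid plexus list was the one whose mean levels were apart between genotypes. Its mean level over 5 of 6 markers was -1.05 to -0.34 in CKO mice and -1.66 to -1.16 in WT mice, so the groups did not overlap. All 5 differences were positive under each of 5 scalings (median 0.43). Ttr and Kl had groups apart at 1.16 and 0.43 (2 of 5, against 3.32% of all genes). None of the 5 passed the limma adjusted threshold (0% of all genes). Aqp1 was too dim to be tested. The part of these cells in the Zfhx values was not tested.

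Thalamus markers were read because Zfhx3 is used in the thalamus, which borders the hippocampus. Their mean level over 9 of 9 markers was -0.76, -0.999, -0.87 and -0.36 in CKO 1 to 4, against -0.64, -0.48, -0.86 and -0.79 in WT 1 to 4. CKO 4, the knockout with the highest Zfhx3 level, had the highest mean of all 8 mice. The means of WT 3 and WT 4 lay within the range of CKO 1 to 3, and those of WT 1 and WT 2 above it, while Zfhx3 was higher in all WT mice. Prkcd, a marker of thalamic relay neurons, was 0.30 in CKO 4, against -1.73 to -1.29 in the other 3 knockouts and -1.74 to 0.11 in WT mice. It is 1 of the 9 markers and was named after its values were seen. The genotypes overlapped, with 6 of 9 differences negative and a median of -0.13, and the part of thalamic RNA in the Zfhx3 values was not tested. Mean levels of the subiculum, striatum, astrocyte, oligodendrocyte, microglia and endothelial lists overlapped between genotypes. Astrocyte markers had mean levels of 0.998 to 1.45 in CKO mice and 0.90 to 1.18 in WT mice. Oligodendrocyte markers had 0.33 to 0.52 and 0.19 to 0.77, and microglia markers -0.32 to 0.19 and -0.26 to -0.046. Glial markers thus gave signal in every mouse, although Camk2a-Cre acts mainly in excitatory neurons. How much RNA from cells without the tag entered the Zfhx values was not tested.

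Sex was a contrast that the choice of genes did not use. The females, WT 3 and CKO 2, both sat on slide 2, and the males on slides 1, 2 and 3, so sex is partly tied to slide. With genotype in the limma model, Zfhx3 averaged -3.24 in the 2 females and -2.70 in the 6 males (difference -0.55, SE 0.49, limma adjusted p = 0.617). The Zfhx2 probes had female-minus-male differences of -0.019 and -0.40, and the Zfhx4 probes -0.13 and 0.49 (limma adjusted p from 0.732 to 0.974). None passed, and 0.0135% of all probes did. That model held no slide term. With slide as a block the female-minus-male difference was -0.20 for Zfhx3, 0.57 for the dim Zfhx2 probe and 1.96 for the dim Zfhx4 probe. The difference of Zfhx3 between CKO and WT was -2.36 in females, 1 mouse each, and -2.20 in males. With 1 female of each genotype, whether sex changed the genotype difference is not read from these data.

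Genes whose levels followed each Zfhx gene most closely were ranked by Pearson correlation over the 8 arrays among 16717 genes with a symbol, measured on all arrays. These are descriptions: all values share the same 8 libraries, their slides and their groups. Lpp, which encodes a focal adhesion protein, was nearest to Zfhx3 with r of 0.985, and it stayed nearest with r of 0.975 after each genotype mean was removed. Lpp had levels of -4.54, -4.54, -4.40 and -3.61 in CKO 1 to 4, against -3.49, -3.46, -3.57 and -3.52 in WT 1 to 4. As for Zfhx3, the fourth knockout was nearest to WT and every knockout lay below every WT mouse. Lpp was ranked by its likeness to the Zfhx3 values, so this shared pattern follows from the ranking. With genotype means removed, Zfhx3 deviated by 1.43 in CKO 4 and by -0.583 to 0.305 in the other mice. The r of 0.975 therefore leans on CKO 4. Next came Pcdha9 at 0.968, a clustered protocadherin, Chchd5 at 0.948, Dbh at 0.944, which makes noradrenaline, and Copg2 at 0.938. Once genotype means were removed, Gm14410, Pcdh12, Zfp398 and Atg16l2 followed Lpp with r from 0.954 to 0.966.

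For the bright Zfhx2 probe the nearest genes were Arhgap33 at 0.978, Cntnap5a at 0.964, Trerf1 at 0.958, Sowaha at 0.958 and Mta1 at 0.956. With genotype means removed they were Dus3l, Galnt16, Pnkd, Spats2 and Pam16, from 0.981 to 0.998. For the brighter Zfhx4 probe they were Epc2 at 0.978, Camsap1 at 0.973, Pycrl at 0.947, Pde10a at 0.935 and Idh3b at 0.933. With genotype means removed they were Camsap1, Brd3, Epc2, Slc24a4 and Ldb1, from 0.951 to 0.975. Camsap1 and Epc2 were on both Zfhx4 lists, whereas the Zfhx2 lists shared no gene.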

How the data were processed

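Each of 8 arrays was 1 mouse, grouped by the genotype in its labels. Per the labels' protocols, RNA bound to tagged ribosomes was labelled with Cy5 after whole transcriptome amplification. Scanner files were deposited and hold spot intensity, and per the file headers the processed signal is background-subtracted and detrended. Feature Extraction 11.5 is named in the submitters' processing notes, and the build is mm9 per the file headers. The authors also deposited a table of intensity values per spot, whose ranks followed the scanner signal (lowest Spearman correlation 0.9988) and whose scaling between arrays is not given in the sources used here.

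From these, log2 of the processed signal minus each array's 75th percentile was computed. Of 62976 spots 59305 were not controls, 110 to 204 outlier spots per array were left out, none was saturated, and 18 of 55681 probes lacked a value. Probes well above background on at least 4 arrays, 44314 of 55663, were tested two-sided with the lmFit and eBayes functions of limma 3.58.1 (R 4.3.3), adjusted by Benjamini-Hochberg over these probes, with a threshold of 0.05. A gene with several probes is given by its brightest. Symbols came from a GRCm38.p6 table used for names alone, which matched 28331 probes. The fit was tested on simulated data.

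The genes and lists were chosen with earlier results of these data known. Named genes were all Zfhx probes, Ctcf, all zinc finger class genes, the 3 smallest p of each other pathway and position list, the nearest neighbours and the 5 most alike genes. Other genes from the lists were named after their values were seen. The labels call the mice biological replicates. The number of arrays limits the precision. Alternatives changed the scaling, background correction, filter, probe summary, variance prior, slide, sex and replicate terms and left out each array.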

Additional observations from a re-analysis of the deposited data

Results flagged for a closer look

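The Zfhx3 level of CKO 4, -2.53 (-2.526), stood apart from the other 3 knockouts. Its gap to the nearest of them was 0.897 of the range of the group, above Dixon's 95% critical value for 4 samples. These CKO values also chose the gene, so the gap is a description. Of the 10 groups of 4 examined, 2 genotypes for each of 5 probes, this was the only one, and chance marks about 1 group in 20. Without CKO 4 the Zfhx3 difference between CKO and WT was -2.72.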

How the results depend on the processing

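The Zfhx3 difference between CKO and WT stayed negative in all alternatives and was -1.10 (-1.097) with offset background correction and quantile normalization, and -2.72 to -2.05 with each array left out. That correction starts from the spot and background intensities in place of the processed signal and adds an offset of 50. The bright Zfhx2 probe, whose main value was 0.052, turned to -0.080 with quantile normalization, -0.16 (-0.161) with offset background correction, -0.22 with the authors' deposited values, -0.082 with slide as a fixed block, -0.005 with it as a random one and -0.30 (-0.302) within slide 3, and it was -0.073 to 0.17 (0.172) with an array left out. The dim Zfhx2 probe was 0.011 to 0.59 and the brighter Zfhx4 probe 0.15 to 0.29 with an array left out. The brighter Zfhx4 probe was -0.066 within slide 3, and the dim one was 0.13 to 1.43 with an array left out. The female-minus-male difference of the bright Zfhx2 probe was 0.056 with quantile normalization and -0.11 (-0.108) to 0.052 with an array left out. It was 0.57 (0.573) for the dim Zfhx2 probe with slide as a block and -0.70 (-0.699) to 1.69 (1.687) for the dim Zfhx4 probe with an array left out. The cause of these changes was not tested.

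Probes called over the whole array, 0 in the main limma fit, numbered 5 with offset background correction, 3 each with no filter, with a filter on all 8 arrays and with a trended and robust prior, 1 each with the brightest probe, the mean of probes and slide as a random block, and 0 to 1 with an array left out. Replicate numbers are not said to pair mice. Deviations of same-numbered arrays had correlations of -0.31, 0.34, -0.39 and 0.036, and 0 of 8 arrays followed its own number best. With the replicate block the Zfhx3 difference was -2.24 and 0 probes were called. Dim probes limit what can be said of the far end of Zfhx2 and Zfhx4.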
